A study of Mus musculus with 6 samples.

Results

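Intergenic long noncoding RNA genes are transcribed from their own loci between protein coding genes and give spliced, often polyadenylated RNAs with no long reading frame. The genes described here were selected on biotype (lincRNA) and place (autosomal) in the deposited expression table and on their level, averaged over all 6 libraries, which had to reach 1 FPKM. FPKM scales reads by the length of the gene and a size set for each library, so levels can be compared between genes. Gas5, Epb41l4aos and genes whose names start with Snhg were left out, which removed 6 autosomal lincRNA genes, 5 of them at 1 FPKM or more. Of 54532 genes in the table, 5559 had the lincRNA biotype, 4915 of these were autosomal, and 168 met the whole rule. A further 4741 autosomal lincRNA genes had a mean under 1 FPKM, and 3046 of them were at 0 in every library. The members were thus chosen by their mean FPKM over both genotypes, so a gene low in 1 genotype could enter through the other. Just inside the threshold were 9330158H04Rik with a mean of 1.003 FPKM, D830026I12Rik with 1.01 FPKM and Gm31659 with 1.02 FPKM. Just outside it were 5033406O09Rik with 0.970 FPKM, AI839979 with 0.964 FPKM and Gm11274 with 0.956 FPKM.

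Hearts of Wtap-CKO mice, a conditional knockout of Wtap, were compared with hearts of Wtapflox/flox mice, which carry the floxed alleles. All mice were 4 days old, and each group had 3 libraries from separate biological replicates. No source used here gives the promoter that drives Cre or the part of Wtap that is deleted. Whole-heart RNA was selected for poly(A) tails before sequencing, so RNAs without a tail are captured poorly. WTAP is a regulatory subunit of the complex that writes N6-methyladenosine (m6A) on nascent RNA, and the series is about its role in heart development. In these libraries Wtap itself had 9.32, 7.75 and 9.46 FPKM in Wtap-CKO hearts, against 7.77, 8.74 and 10.9 FPKM in Wtapflox/flox hearts. The groups overlapped, and the difference was not called (log2 fold change -0.04, 95% interval -0.37 to 0.29, adjusted p = 0.893, exact two-sided permutation p = 0.9, where the smallest p that 3 against 3 allows is 0.1). Whole-gene FPKM does not separate transcripts with and without the deleted part, so this value does not check the genotype labels.

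Long noncoding RNAs act in several ways. Some scaffold nuclear bodies, as Neat1 does for paraspeckles. Others carry microRNA hairpins, bind microRNAs or RNA-binding proteins, recruit chromatin regulators, or mark transcription beside a coding gene without a known role for the RNA itself. In the heart, noncoding RNAs are known from work in mice for roles in cardiovascular commitment (Bvht) and in the response to pressure load (Chaer1). Long noncoding RNAs are also substrates of m6A, Malat1 among them.

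Sequences are shown here for the loci to which the results return. The first set is the pair of facing start sites of Gm17501 and Cyr61 (Ccn1 in RefSeq), both of which were higher in Wtap-CKO hearts. The windows run from 250 bases before to 50 after each RefSeq start site (RefSeq, GRCm38.p6), at chr3:145649827-145650126 on the plus strand for Gm17501 and at chr3:145649936-145650235 on the minus strand for Ccn1. The start sites lie 92 bases apart, and the windows share 191 bases. Capitals mark GGAATG, the core of TEAD binding sites, and TATAAA, or their reverse complements.
Gm17501: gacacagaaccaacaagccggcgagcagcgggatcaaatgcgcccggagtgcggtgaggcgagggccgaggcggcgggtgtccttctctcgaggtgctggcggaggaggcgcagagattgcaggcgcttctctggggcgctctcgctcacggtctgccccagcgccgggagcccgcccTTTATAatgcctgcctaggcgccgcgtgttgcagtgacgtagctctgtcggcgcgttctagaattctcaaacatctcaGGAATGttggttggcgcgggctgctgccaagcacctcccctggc
Ccn1: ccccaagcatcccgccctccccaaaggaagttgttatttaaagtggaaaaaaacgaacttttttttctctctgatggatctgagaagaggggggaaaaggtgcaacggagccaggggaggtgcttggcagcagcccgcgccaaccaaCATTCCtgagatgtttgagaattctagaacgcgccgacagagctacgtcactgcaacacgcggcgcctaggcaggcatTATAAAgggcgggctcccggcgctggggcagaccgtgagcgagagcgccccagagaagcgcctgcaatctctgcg
Both marked matches of the Gm17501 window are the same genomic bases as those of the Ccn1 window, read from the other strand. GGAATG begins at position 7 relative to the Gm17501 start site, and its complement at -103 relative to that of Ccn1. TATAAA stands at -25 of the Ccn1 start site, on the Ccn1 strand, and its reverse complement at -72 of the Gm17501 start site. On either strand, 14.7% of 32851 RefSeq promoter windows of the same length held GGAATG and 13.6% held TATAAA. A match is a run of letters and does not show binding.

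The second set is Chaer1 and its nearest coding gene Hopx, both of which were lower in Wtap-CKO hearts. Both windows are on the minus strand of GRCm38.p6, at chr5:77140256-77140555 for Chaer1 and chr5:77115074-77115373 for Hopx, and capitals mark a CArG box, the site of serum response factor.
Chaer1: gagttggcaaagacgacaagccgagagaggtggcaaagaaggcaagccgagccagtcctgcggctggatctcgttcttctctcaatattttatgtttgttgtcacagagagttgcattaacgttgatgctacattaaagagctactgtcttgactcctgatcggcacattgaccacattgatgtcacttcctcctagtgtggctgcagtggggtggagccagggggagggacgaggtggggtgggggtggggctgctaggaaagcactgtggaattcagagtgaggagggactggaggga
Hopx: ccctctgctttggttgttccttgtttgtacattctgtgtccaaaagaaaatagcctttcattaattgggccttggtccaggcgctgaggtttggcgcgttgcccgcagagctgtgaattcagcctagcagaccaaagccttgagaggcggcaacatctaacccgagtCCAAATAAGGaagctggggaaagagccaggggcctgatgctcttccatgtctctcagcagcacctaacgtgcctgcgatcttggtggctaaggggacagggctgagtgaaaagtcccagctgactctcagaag
The CArG match lay at -83 relative to the Hopx start site, and 1.63% of the RefSeq windows held one. A search for the letters marked in the first set, the GATA site AGATAA (11.2% of windows), the CArG box and the MEF2 site (3.19% of windows) on both strands found no match in the Chaer1 window. It found none in the window of Eprn either, which is not shown. In the windows of Gm17501, Ccn1 and Hopx it found only the marked matches. Within each window the marked matches do not overlap. RefSeq promoter windows were found for 89 of the 168 genes.

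The third set is the microRNA site of 1700020I14Rik, the mouse Cyrano RNA (Oip5os1 in GENCODE M39), which was lower in Wtap-CKO hearts. Cyrano is known in mice to bind miR-7 through an extensively paired site and to trigger its decay. The site lies at positions 3318 to 3342 of a GENCODE M39 transcript of 8683 bases. Capitals mark the bases that pair with the seed, and the seed itself in the microRNA, whose sequence is from RefSeq.
Cyrano site: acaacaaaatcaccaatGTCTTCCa
miR-7a-5p: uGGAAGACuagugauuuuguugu
Of the 23 bases of miR-7a-5p, 22 paired with this site when 2 unpaired site bases were allowed. The transcript held 2 matches to the seed in all.

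The last set is microRNAs in or beside these genes, with the seed (bases 2 to 8) in capitals, from RefSeq on GRCm38.p6. In the Mir17hg transcript unit miR-17-5p and miR-20a-5p share a seed, and so do miR-19a-3p and miR-19b-3p. The last 3 lie on chromosome 8 just before Gm26532, whose annotated start in the file was 24 bases after the end of miR-24-3p, 173 bases after that of miR-27a-3p and 337 bases after that of miR-23a-3p.
miR-17-5p: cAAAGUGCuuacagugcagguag
miR-20a-5p: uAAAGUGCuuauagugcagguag
miR-19a-3p: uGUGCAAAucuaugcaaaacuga
miR-19b-3p: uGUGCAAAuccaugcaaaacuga
miR-23a-3p: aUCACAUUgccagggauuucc
miR-27a-3p: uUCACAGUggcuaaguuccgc
miR-24-3p: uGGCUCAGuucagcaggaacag

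Among the 168 genes, 14 were higher and 32 were lower in Wtap-CKO hearts than in Wtapflox/flox hearts. A gene was called when its adjusted p was under 0.05 by limma on log2(FPKM + 1), with Benjamini-Hochberg adjustment over all 12568 genes tested. The 46 calls make 27.4% of the genes, against 16.6% of all tested genes. The 32 lower genes make 19%, against 6.69% of all tested genes called lower, and the 14 higher genes make 8.33%, against 9.91% called higher. These shares include genes that entered through 1 genotype, since 17 of the 32 lower genes averaged under 1 FPKM in Wtap-CKO hearts and 4 of the 14 higher genes did so in Wtapflox/flox hearts. Of the 126 genes that averaged 1 FPKM or more in both groups, 19.8% were called, 7.94% higher and 11.9% lower. Over all tested genes at that level in both groups the shares were 15.8% called, 9.62% higher and 6.14% lower. Among protein coding genes 17.1% were called, 10.6% higher and 6.55% lower. The median log2 fold change was -0.19 (quartiles -0.53 and 0.11), beside 0.0029 over all tested genes. The values of the groups did not overlap for 65 of the 168 genes, and they did not for 37.1% of all tested genes. A log2 fold change of at least 1 was reached by 7 of the higher and 11 of the lower genes, against 3.29% of all tested genes for both directions together. These are counts, and the list as a whole was not tested. Rescaling each library to the same FPKM total moved the median of all tested genes to -0.13 and gave 12 higher and 40 lower genes, and under that scaling the higher share of all calls over all genes was 33.3%, against 59.7% in the deposited scaling.

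The calls were fewer without some libraries. Leaving out 1 library at a time gave 30 to 45 calls, with the lowest count without Wtapflox/flox 1, where 9 were higher and 21 lower. The number of higher genes was 9 without Wtap-CKO 1, 8 without Wtapflox/flox 2 and 8 without Wtapflox/flox 3. Without Wtap-CKO 3, which stood apart from the other Wtap-CKO hearts in several genes below, 12 were higher and 33 lower, and 37 of the 46 calls were among them. Testing with no filter on low values ended 16 of the 46 calls. They included Chaer1, Gm26532, 1810058I24Rik, Gm39469, E230014E18Rik, Gm49427, Gm34099, Gm39090, Gm4544, Gm10747 and Gm42047. Among these named genes the adjusted p went up to 0.0928, for Gm39469.

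**Figure D1:**
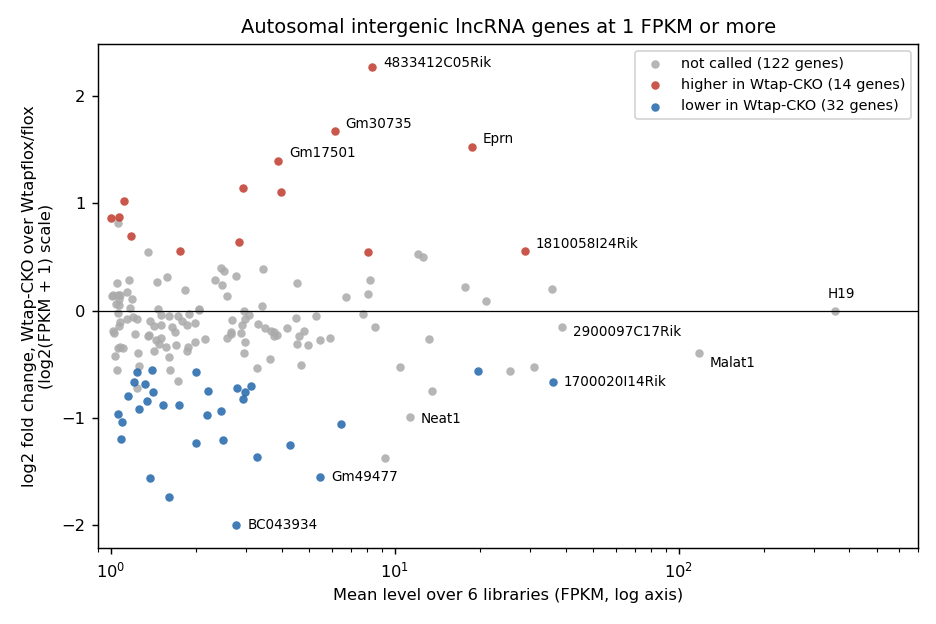
Each point is 1 of the 168 intergenic long noncoding RNA genes, placed by its mean level over 6 libraries (FPKM, log axis) and its log2 fold change, Wtap-CKO over Wtapflox/flox. The 14 higher genes are red, the 32 lower genes blue and the other 122 grey, and most lower genes lie between 1 and 5 FPKM.

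Most of these RNAs were scarce. The mean level had a median of 2.04 FPKM and ran from 1.003 to 356 FPKM, with H19 and Malat1 far above the rest. Of the 136 genes whose mean lay between 1 and 5 FPKM, 9 were higher (6.62%) and 28 lower (20.6%), whereas of all tested genes at that level 14.5% were called, 6.59% higher and 7.96% lower. Of the 32 genes that averaged 5 FPKM or more, 5 were higher (15.6%) and 4 lower (12.5%). Over all tested genes, whatever their level, 9.91% were higher and 6.69% lower. The threshold on the mean let some genes in through 1 group alone. A mean under 1 FPKM in Wtap-CKO hearts was found for 29 genes, of which 17 were called lower. In Wtapflox/flox hearts 13 genes had a mean under 1 FPKM, of which 4 were called higher. Such a gene had to differ to be included. Those 126 genes at 1 FPKM or more in both groups held 10 of the higher and 15 of the lower genes.

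By library, the 168 genes together held 1074, 1150 and 1267 FPKM in Wtap-CKO hearts, against 1293, 1214 and 1219 FPKM in Wtapflox/flox hearts. In the deposited FPKM these sums overlapped between the groups. As shares of the FPKM total of each library they did not. The shares were 0.294%, 0.321% and 0.326% in Wtap-CKO hearts, against 0.410%, 0.364% and 0.359% in Wtapflox/flox hearts. Recovered reads in the 168 genes did not overlap either, with 53273, 59527 and 59111 in Wtap-CKO libraries, against 70358, 62188 and 67581 in Wtapflox/flox libraries. These differences were not tested. Without H19 and Malat1 the sums were 645, 647 and 787 FPKM in Wtap-CKO hearts, against 843, 728 and 723 FPKM in Wtapflox/flox hearts. Median recovered reads per gene were 45, 47 and 54 in Wtap-CKO libraries, against 69, 59 and 59 in Wtapflox/flox libraries. Fewer than 10 reads were found for 17, 17 and 14 genes in Wtap-CKO libraries, against 7, 12 and 7 genes in Wtapflox/flox libraries. For these genes counting error alone is wide, and a value of 0 is not a sign of absence. In bulk hearts, fewer cells of a type and less RNA per cell cannot be told apart.

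Among the genes that rose, the 4 with the largest log2 fold changes were 4833412C05Rik, Gm30735, Eprn and Gm17501. 4833412C05Rik had 19.4, 11.5 and 12.2 FPKM in Wtap-CKO hearts, against 1.07, 4.06 and 1.82 FPKM in Wtapflox/flox hearts. All 3 Wtap-CKO hearts lay above all 3 Wtapflox/flox hearts, and Wtap-CKO 1 was the highest (log2 fold change 2.28 ± 0.36 (SE), adjusted p = 0.0110). Without Wtapflox/flox 3 the adjusted p was 0.05002, just above the threshold, and with the replicate number as a block it was 0.0801. Gm30735 had 9.21, 8.83 and 11.5 FPKM in Wtap-CKO hearts, against 3.16, 2.51 and 1.63 FPKM in Wtapflox/flox hearts, with no overlap (log2 fold change 1.68 ± 0.18 (SE), adjusted p = 0.000993). Eprn, called Ephemeron and known from mouse embryonic stem cells for a part in leaving the naive state, had 27.2, 25.4 and 32.1 FPKM in Wtap-CKO hearts, against 10.9, 7.90 and 8.64 FPKM in Wtapflox/flox hearts. The groups lay well apart, and the means were 28.2 ± 3.50 FPKM in Wtap-CKO hearts and 9.15 ± 1.56 FPKM in Wtapflox/flox hearts (SD, n = 3 each; log2 fold change 1.53 ± 0.15 (SE), adjusted p = 0.000734). Gm17501, which faces Cyr61 across the start sites shown above, had 6.22, 4.83 and 7.27 FPKM in Wtap-CKO hearts, against 1.78, 1.83 and 1.43 FPKM in Wtapflox/flox hearts (log2 fold change 1.40 ± 0.15 (SE), adjusted p = 0.00100). Its 3 Wtap-CKO values were all more than those of any Wtapflox/flox heart, and no left-out library ended the call of Gm30735, Eprn or Gm17501.

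E230014E18Rik had 5.19, 5.28 and 2.77 FPKM in Wtap-CKO hearts, against 2.07, 1.10 and 1.12 FPKM in Wtapflox/flox hearts (log2 fold change 1.14 ± 0.23 (SE), adjusted p = 0.0142). Wtap-CKO 3 was the lowest of its group but still above the 3 Wtapflox/flox hearts, and the call ended without Wtap-CKO 1, Wtapflox/flox 2 or Wtapflox/flox 3, with adjusted p up to 0.0573. Gm26532, which starts just after the microRNA cluster shown above, had 8.71, 9.29 and 11.3 FPKM in Wtap-CKO hearts, against 5.32, 6.75 and 6.95 FPKM in Wtapflox/flox hearts (log2 fold change 0.55 ± 0.14 (SE), adjusted p = 0.0305). The microRNAs themselves were not measured, and the call of Gm26532 ended without any one of 4 libraries, which are Wtap-CKO 3 and the 3 Wtapflox/flox hearts, with adjusted p up to 0.102. It also ended with each library rescaled to the same total (adjusted p = 0.0576) and with limma-voom on recovered reads (adjusted p = 0.0817). Gm15328, 6475 bases from Cdh2 in divergent orientation, had 1.37, 1.74 and 1.96 FPKM in Wtap-CKO hearts, against 0.675, 0.769 and 0.536 FPKM in Wtapflox/flox hearts (log2 fold change 0.69 ± 0.14 (SE), adjusted p = 0.0129). Cdh2, the N-cadherin of the intercalated disc, had 51.0, 54.3 and 34.4 FPKM in Wtap-CKO hearts, against 53.7, 48.4 and 54.6 FPKM in Wtapflox/flox hearts and was not called (log2 fold change -0.19, adjusted p = 0.526). Gm34099 also rose, with 57 reads over the 3 Wtap-CKO libraries, against 18 over the 3 Wtapflox/flox libraries (log2 fold change 0.87, adjusted p = 0.0266). Its call ended without Wtap-CKO 1, Wtap-CKO 2, Wtapflox/flox 1 or Wtapflox/flox 2, with adjusted p up to 0.0872, and with a pseudocount of 0.1 (0.0553). Gm15328 and Gm34099 averaged under 1 FPKM in Wtapflox/flox hearts and entered the set through Wtap-CKO hearts.

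A group of higher genes overlaps a coding gene or is coding in newer annotation. 1810058I24Rik is the protein coding gene Stmp1 in GENCODE M39, which encodes a small membrane protein of mitochondria. It had 36.1, 28.6 and 38.6 FPKM in Wtap-CKO hearts, against 22.2, 22.6 and 24.1 FPKM in Wtapflox/flox hearts, with no overlap (log2 fold change 0.55 ± 0.14 (SE), adjusted p = 0.0293), but leaving out any library other than Wtap-CKO 2 ended the call, with adjusted p up to 0.101, and so did rescaling each library to the same total (0.0618). Zfp469, a zinc finger gene that is also coding in GENCODE M39, had 6.15, 5.48 and 5.69 FPKM in Wtap-CKO hearts, against 1.97, 2.35 and 2.12 FPKM in Wtapflox/flox hearts (log2 fold change 1.11 ± 0.11 (SE), adjusted p = 0.000848). Zfp469 lies within the long coding model Gm20388 on the same strand. 9330158H04Rik lies opposite Chrm2, the muscarinic receptor of the heart, and had 1.32, 1.45 and 2.01 FPKM in Wtap-CKO hearts, against 0.375, 0.308 and 0.559 FPKM in Wtapflox/flox hearts (log2 fold change 0.87 ± 0.16 (SE), adjusted p = 0.00731). Gm49427 lies opposite the macrophage receptor gene Cx3cr1 and had 1.75, 2.40 and 1.30 FPKM in Wtap-CKO hearts, against 0.101, 0.222 and 0.897 FPKM in Wtapflox/flox hearts (log2 fold change 1.03, adjusted p = 0.0188). Both 9330158H04Rik and Gm49427 averaged under 1 FPKM in Wtapflox/flox hearts and entered the set through Wtap-CKO hearts. Cx3cr1 itself had 2.34, 2.75 and 3.06 FPKM in Wtap-CKO hearts, against 2.70, 2.05 and 2.58 FPKM in Wtapflox/flox hearts and was not called (log2 fold change 0.11, adjusted p = 0.617). Gm49427 rests on 50 reads in Wtap-CKO and 12 in Wtapflox/flox libraries, and its call ended without Wtap-CKO 1, Wtap-CKO 2, Wtapflox/flox 1 or Wtapflox/flox 2, with adjusted p up to 0.0668. The remaining 2 are Gm39090, opposite Bcl7c (log2 fold change 0.64, adjusted p = 0.0236), and AC165953.2, within Scaf8 on its strand (0.55, adjusted p = 0.0168). The call of Gm39090 ended without Wtap-CKO 2, Wtap-CKO 3, Wtapflox/flox 1 or Wtapflox/flox 3 (adjusted p up to 0.0798) and with limma-voom on recovered reads, and that of AC165953.2 without Wtap-CKO 1, Wtapflox/flox 2 or Wtapflox/flox 3 (up to 0.0656). The sources used here do not say whether reads were counted by strand or how reads in overlapping genes were assigned, so the values of these genes and of their partners cannot be fully told apart.

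**Figure D2:**
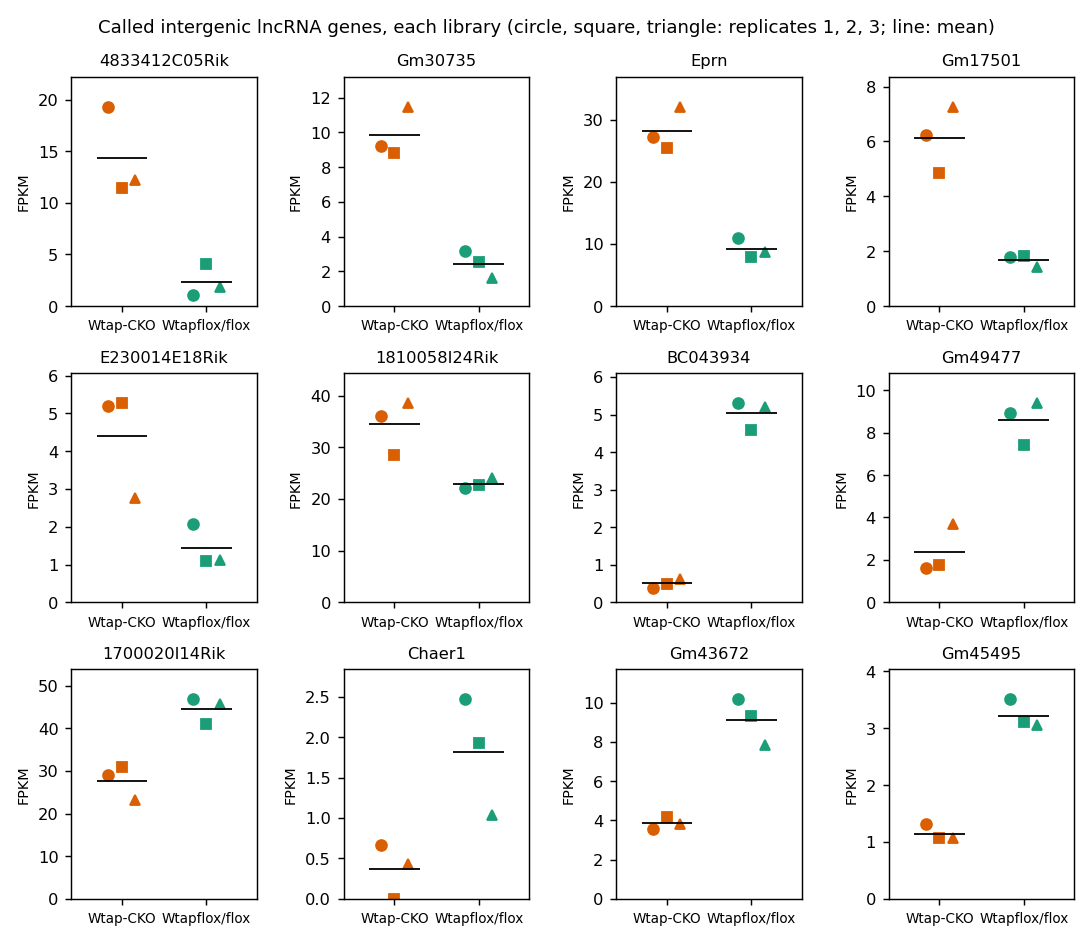
FPKM of 12 called genes in each library, Wtap-CKO left and Wtapflox/flox right, with circle, square and triangle for replicates 1, 2 and 3 and a line at the mean of 3. In every panel the groups do not overlap, which the choice of called genes makes likely. Over all tested genes the groups do not overlap for 37.1%. BC043934 had 0.394 to 0.626 FPKM in Wtap-CKO against 4.59 to 5.31 FPKM in Wtapflox/flox hearts. Like Chaer1, BC043934 entered the set through Wtapflox/flox hearts and had to differ to be included.

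The genes that fell were led by BC043934 and Gm41414, and no left-out library ended either call. Both averaged under 1 FPKM in Wtap-CKO hearts, as did Gm19277, so all of them entered the set through Wtapflox/flox hearts. Such genes had to differ to be included. BC043934 had 0.394, 0.495 and 0.626 FPKM in Wtap-CKO hearts, against 5.31, 4.59 and 5.198 FPKM in Wtapflox/flox hearts. It fell to 10.03% of the Wtapflox/flox mean, with 59 reads over the Wtap-CKO libraries against 607 (log2 fold change -2.004 ± 0.12 (SE), adjusted p = 0.000114). Gm41414 had 0, 0 and 0.559 FPKM in Wtap-CKO hearts, against 2.505, 1.95 and 4.61 FPKM in Wtapflox/flox hearts, which rests on 7 reads against 111 (log2 fold change -1.74 ± 0.27 (SE), adjusted p = 0.00484). Gm19277 fell as well, with 0.0532, 0.111 and 0.243 FPKM in Wtap-CKO hearts, against 4.33, 1.03 and 2.47 FPKM in Wtapflox/flox hearts, on 8 reads against 158 (log2 fold change -1.56 ± 0.32 (SE), adjusted p = 0.0173). The 3 Wtapflox/flox values of Gm19277 spread widely, and its call ended without Wtap-CKO 1, Wtap-CKO 2 or Wtapflox/flox 3, with adjusted p up to 0.0756.

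Gm49477, named Cmarr in GENCODE M39, had 1.62, 1.77 and 3.71 FPKM in Wtap-CKO hearts, against 8.94, 7.41 and 9.40 FPKM in Wtapflox/flox hearts. Wtap-CKO 3 was the highest of its group, but below every Wtapflox/flox heart (log2 fold change -1.56 ± 0.22 (SE), adjusted p = 0.00328). Gm43672, whose start lies 510 bases from Tbl1xr1 in divergent orientation, had 3.58, 4.15 and 3.80 FPKM in Wtap-CKO hearts, against 10.2, 9.34 and 7.83 FPKM in Wtapflox/flox hearts (log2 fold change -1.06 ± 0.13 (SE), adjusted p = 0.00153). Tbl1xr1, a subunit of corepressor complexes, had 4.72, 5.88 and 3.80 FPKM in Wtap-CKO hearts, against 5.02, 4.39 and 4.35 FPKM in Wtapflox/flox hearts and was not called (log2 fold change 0.04, 95% interval -0.30 to 0.38, adjusted p = 0.880). Gm26795 had 1.68, 2.84 and 1.90 FPKM in Wtap-CKO hearts, against 7.12, 6.46 and 5.71 FPKM in Wtapflox/flox hearts (log2 fold change -1.26 ± 0.16 (SE), adjusted p = 0.00174). D830013O20Rik had 1.26, 1.32 and 1.48 FPKM in Wtap-CKO hearts, against 6.49, 3.56 and 5.57 FPKM in Wtapflox/flox hearts (log2 fold change -1.37 ± 0.18 (SE), adjusted p = 0.00209). Gm12519, Gm44899 and Gm31013 had log2 fold changes of -1.24, -1.21 and -1.20, with adjusted p of 0.00307, 0.00205 and 0.01005. None of the calls of these 7 genes ended when a library was left out. Gm31013 averaged 1.09 FPKM over the 6 libraries, so it entered the set through Wtapflox/flox hearts.

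Chaer1, which in mouse hearts is known to bind the polycomb complex PRC2 and to act in hypertrophic growth, had 0.666, 0 and 0.436 FPKM in Wtap-CKO hearts, against 2.47, 1.93 and 1.04 FPKM in Wtapflox/flox hearts. It was at 0 in Wtap-CKO 2, and the groups did not overlap (log2 fold change -1.04 ± 0.25 (SE), adjusted p = 0.0236). With a Wtap-CKO mean under 1 FPKM, Chaer1 entered the set through Wtapflox/flox hearts. The values rest on 12 reads over the 3 Wtap-CKO libraries, against 60 over the 3 Wtapflox/flox libraries, and the call ended without Wtapflox/flox 1 or Wtapflox/flox 2, with adjusted p up to 0.0802, and with a pseudocount of 0.1 (0.0654). 1700020I14Rik, the Cyrano RNA whose miR-7 site is shown above, had 29.1, 30.9 and 23.2 FPKM in Wtap-CKO hearts, against 46.8, 40.9 and 45.8 FPKM in Wtapflox/flox hearts. It was the most abundant of the called genes and fell to 62.3% of the Wtapflox/flox mean, with no overlap (log2 fold change -0.67 ± 0.14 (SE), adjusted p = 0.0149). Without Wtapflox/flox 1 or Wtapflox/flox 3 the call ended, with adjusted p up to 0.0511. Gm42047, another abundant RNA, had 16.5, 16.03 and 14.3 FPKM in Wtap-CKO hearts, against 26.6, 22.9 and 21.3 FPKM in Wtapflox/flox hearts (log2 fold change -0.56 ± 0.13 (SE), adjusted p = 0.0192). It lies within Gm20388 on the same strand, so its reads may be shared with that model, and its call ended without Wtapflox/flox 1 or Wtapflox/flox 2, with adjusted p up to 0.0654.

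Further genes were lower. Of all 32 lower genes, 17 averaged under 1 FPKM in Wtap-CKO hearts and so entered the set through Wtapflox/flox hearts. Gm45495 had 1.31, 1.07 and 1.07 FPKM in Wtap-CKO hearts, against 3.51, 3.11 and 3.05 FPKM in Wtapflox/flox hearts (log2 fold change -0.98 ± 0.12 (SE), adjusted p = 0.00156). Among the next 8 by size of change were 4632428C04Rik, 42954 bases upstream of Hes1 (log2 fold change -0.97), A430046D13Rik beside Myl6b (-0.94), Gm4544 (-0.92), 4632404H12Rik beside Ube2q1 (-0.88), Gm10747 beside Lrrc10 (-0.88), Gm30262 (-0.84), Gm39469 (-0.82) and Gm34934 beside Samd4 (-0.80). Their adjusted p lay between 0.00246 for A430046D13Rik and 0.0281 for Gm39469. Of these 8, Gm4544 and Gm39469 lost their calls when certain libraries were left out, with adjusted p up to 0.0701 for Gm4544 (without Wtap-CKO 2, Wtap-CKO 3, Wtapflox/flox 1 or Wtapflox/flox 3) and 0.0948 for Gm39469 (without Wtap-CKO 1, Wtap-CKO 3, Wtapflox/flox 1 or Wtapflox/flox 3). The call of Gm39469 ended as well with the replicate number as a block (adjusted p = 0.0627) and with limma-voom on recovered reads (0.0915).

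**Figure D3:**
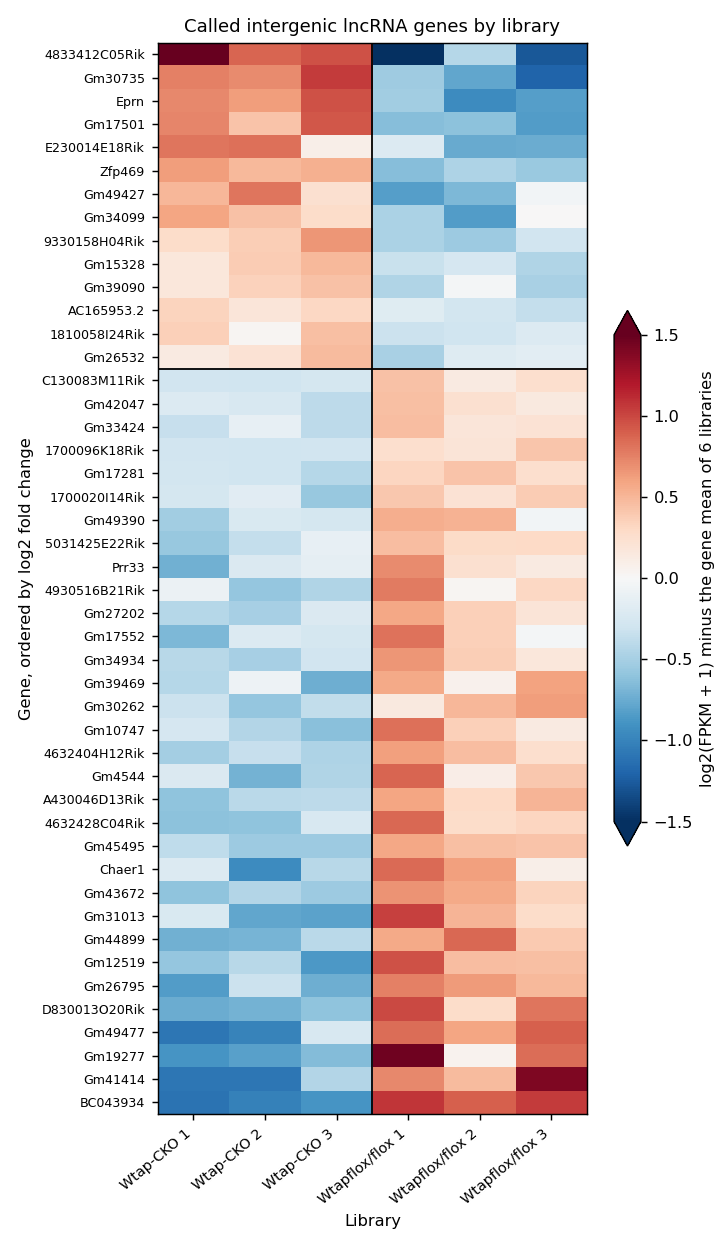
Each row is 1 of the 46 called genes, ordered by log2 fold change, each column a library, the 3 Wtap-CKO hearts left of the 3 Wtapflox/flox hearts, and colour gives log2(FPKM + 1) minus the mean of the gene over 6 libraries, red above and blue below it. The 14 genes above the line are higher in Wtap-CKO and the 32 below it lower, which the choice of genes fixes, and the depth of colour varies between libraries of a group.

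The imprinted RNAs with the highest levels were not called. H19, the maternally expressed RNA beside Igf2 and a host of miR-675, was the most abundant of the 168 genes and had 309, 322 and 443 FPKM in Wtap-CKO hearts, against 320.2, 362 and 383 FPKM in Wtapflox/flox hearts. The groups overlapped (log2 fold change -0.0019, 95% interval -0.43 to 0.43, adjusted p = 0.996). Meg3, of the Dlk1-Dio3 domain, had 6.73, 7.27 and 13.8 FPKM in Wtap-CKO hearts, against 8.53, 6.92 and 5.87 FPKM in Wtapflox/flox hearts, and Wtap-CKO 3 stood alone above the rest (log2 fold change 0.29 ± 0.25 (SE), adjusted p = 0.488). Mirg, a host of many microRNAs in the same domain, had 0.866, 0.746 and 3.55 FPKM in Wtap-CKO hearts, against 0.378, 0.397 and 0.410 FPKM in Wtapflox/flox hearts. The groups of Mirg did not overlap, with Wtap-CKO 3 again the highest, but the difference was not called (log2 fold change 0.82 ± 0.35 (SE), adjusted p = 0.165). Mirg averaged 0.395 FPKM in Wtapflox/flox hearts and 1.06 FPKM over the 6 libraries. It thus entered the set through Wtap-CKO hearts and had to differ to be included. Rian, a noncoding RNA of that domain with another biotype, had 5.40, 5.15 and 11.8 FPKM in Wtap-CKO hearts, against 3.45, 3.66 and 3.97 FPKM in Wtapflox/flox hearts and was not called either (log2 fold change 0.76 ± 0.27 (SE), adjusted p = 0.102). Of 7 imprinted noncoding genes tested, whatever their biotype, 0 were called, and 1 had an unadjusted p under 0.05. Over all 12568 tested genes 16.6% were called and 3977 had an unadjusted p under 0.05. Of 11 coding genes of the same domains, 0 were higher and 1 was lower, the potassium channel gene Kcnq1, with 13.3, 11.96 and 9.81 FPKM in Wtap-CKO hearts, against 19.4, 17.6 and 15.8 FPKM in Wtapflox/flox hearts (log2 fold change -0.55 ± 0.14 (SE), adjusted p = 0.0299).

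Among the 168 genes 8 hold mature microRNAs by position, 49 in all with 46 different seeds, and none of the 8 was called. Over all tested genes 16.6% were called, so a count of 0 among so few genes says little. Mirg held 26 of them and Mir17hg 11. Mir17hg, the host of the miR-17 to miR-92 cluster known for its part in heart growth, had 3.01, 2.78 and 3.66 FPKM in Wtap-CKO hearts, against 1.95, 1.92 and 3.19 FPKM in Wtapflox/flox hearts. The groups overlapped (log2 fold change 0.32 ± 0.17 (SE), adjusted p = 0.225). Of 9 microRNA host genes tested from a wider list, 1 was higher, Mir22hg, with 26.8, 20.1 and 25.5 FPKM in Wtap-CKO hearts, against 13.0, 17.1 and 16.6 FPKM in Wtapflox/flox hearts (log2 fold change 0.60 ± 0.16 (SE), adjusted p = 0.0314), and 0 were lower. Host levels do not give the levels of the mature microRNAs, which were not measured.

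The RNAs of nuclear bodies were not called. Neat1, the scaffold of paraspeckles, had 4.04, 7.13 and 11.4 FPKM in Wtap-CKO hearts, against 16.01, 17.2 and 12.02 FPKM in Wtapflox/flox hearts. All 3 Wtap-CKO hearts were below the Wtapflox/flox hearts, but Wtap-CKO 3 lay close to Wtapflox/flox 3, and the difference did not pass (log2 fold change -0.997 ± 0.33 (SE), 95% interval -1.78 to -0.22, adjusted p = 0.0869). Over the alternatives its adjusted p ran between 0.0133 and 0.229. Malat1, which gathers in nuclear speckles and whose mature end has no poly(A) tail, had 121, 181 and 36.5 FPKM in Wtap-CKO hearts, against 129.96, 124 and 114 FPKM in Wtapflox/flox hearts. Wtap-CKO 3 had less than any other heart and Wtap-CKO 2 more (log2 fold change -0.39 ± 0.59 (SE), adjusted p = 0.697), and without Wtap-CKO 3 the log2 fold change was 0.27. Of the 4 nuclear body RNAs tested 0 were called and 2 had an unadjusted p under 0.05. Of 19 genes for paraspeckle proteins tested 0 were called and 4 had an unadjusted p under 0.05. These counts stand beside 16.6% of the 12568 tested genes called, and 3977 of them with an unadjusted p under 0.05.

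The other genes tested from a list of cardiac long noncoding RNAs were not called. Bvht, known as Braveheart, had 17.6, 20.01 and 19.6 FPKM in Wtap-CKO hearts, against 13.8, 17.5 and 17.7 FPKM in Wtapflox/flox hearts (log2 fold change 0.22 ± 0.13 (SE), adjusted p = 0.296). Carmn, known from smooth muscle and not among the 8 microRNA-holding genes counted above, had 0.941, 1.38 and 1.06 FPKM in Wtap-CKO hearts, against 1.29, 1.28 and 0.441 FPKM in Wtapflox/flox hearts (log2 fold change 0.11 ± 0.20 (SE), adjusted p = 0.747). Both pairs of groups overlapped. Of the 9 genes tested from that list 0 were called, and 3 had an unadjusted p under 0.05. Of all 12568 tested genes 16.6% were called, and 3977 had an unadjusted p under 0.05. Chaer1 and Gm49477 (Cmarr), both called lower, were not on that list under their names in the file. 2900097C17Rik, the Norad RNA that binds Pumilio proteins, had 40.03, 36.8 and 33.6 FPKM in Wtap-CKO hearts, against 39.7, 39.9 and 43.3 FPKM in Wtapflox/flox hearts (log2 fold change -0.15 ± 0.13 (SE), adjusted p = 0.445). Its GENCODE M39 transcript held 11 copies of TGTANATA, the Pumilio recognition element, more than any other of the 148 transcripts found, whose median was 0.

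**Figure D4:**
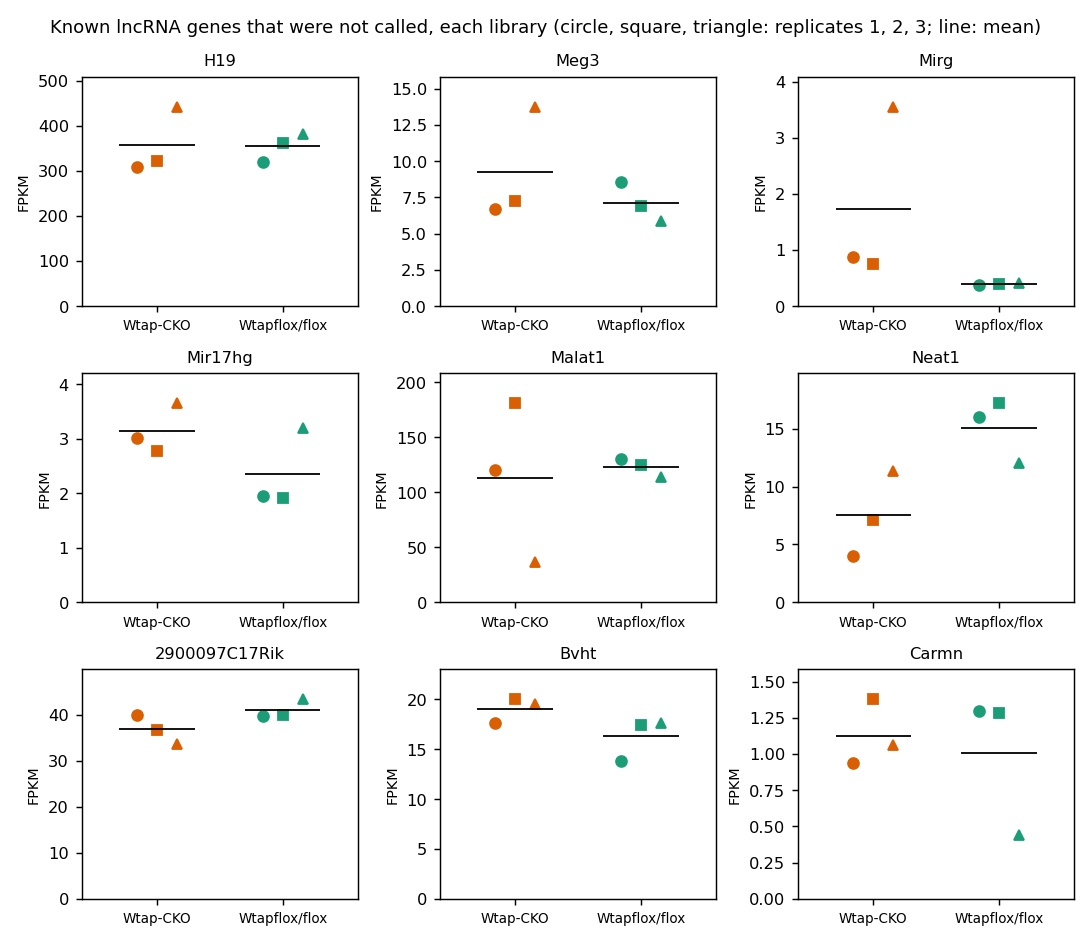
FPKM of 9 known long noncoding RNA genes that were not called, in each library, Wtap-CKO left and Wtapflox/flox right, with circle, square and triangle for replicates 1, 2 and 3 and a line at the mean of 3. Wtap-CKO 3 (orange triangle) is the highest point for Meg3, Mirg, H19 and Mir17hg. It is the lowest for 2900097C17Rik and for Malat1, where it is at 36.5 FPKM.

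Other abundant genes were not called, and several varied widely within groups. Gm10076 had 33.5, 12.1 and 72.7 FPKM in Wtap-CKO hearts, against 49.9, 36.2 and 10.6 FPKM in Wtapflox/flox hearts, a spread within each group larger than the difference between them (log2 fold change 0.20 ± 0.87 (SE), adjusted p = 0.90). 5430431A17Rik had 14.96, 23.8 and 39.9 FPKM in Wtap-CKO hearts, against 42.0, 28.4 and 37.1 FPKM in Wtapflox/flox hearts (log2 fold change -0.53 ± 0.34 (SE), adjusted p = 0.349), and it was called lower without Wtap-CKO 3, with an adjusted p between 0.0449 and 0.676 over the alternatives. Lsmem2, coding in GENCODE M39, had 13.3, 22.1 and 26.1 FPKM in Wtap-CKO hearts, against 35.4, 22.7 and 32.7 FPKM in Wtapflox/flox hearts (log2 fold change -0.57 ± 0.26 (SE), adjusted p = 0.189). Tmem250-ps, also coding there, had 22.1, 19.1 and 24.1 FPKM in Wtap-CKO hearts, against 20.03, 21.5 and 19.4 FPKM in Wtapflox/flox hearts (log2 fold change 0.09 ± 0.13 (SE), adjusted p = 0.672), and its sign turned under quantile normalization and when each library was rescaled to the same total. Gm26917 had 10.6, 23.9 and 9.97 FPKM in Wtap-CKO hearts, against 7.88, 11.1 and 8.93 FPKM in Wtapflox/flox hearts, with Wtap-CKO 2 far above the rest (log2 fold change 0.52 ± 0.33 (SE), adjusted p = 0.326).

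The nearest coding gene of each RNA was then compared with it. The distance had a median of 3.53 kb, 27 of the 168 genes overlapped a coding gene, and 26 started within 1000 bases of one in divergent orientation. The nearest coding gene was tested for 132 of them, and 19 of these neighbours were called, which is 14.4%, against 17.1% of all protein coding genes. Over the 132 pairs the log2 fold changes had Pearson's r = 0.19 and Spearman's rho = 0.12, given as a description, since the pairs share the same 6 libraries. Over the 112 pairs without any overlap r was also 0.19. Of the 38 called RNAs with a tested neighbour, 8 had a neighbour that was called too, 3 both higher, 2 both lower and 3 in opposite directions. Those 8 are 21.1% of the 38, near the 17.1% of coding genes, and the pairs below are given as values only.

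The strongest shared rise was that of Gm17501 and Cyr61. Cyr61 encodes the matricellular protein CCN1, a known target of YAP and TEAD, and had 90.3, 86.2 and 97.9 FPKM in Wtap-CKO hearts, against 22.2, 33.9 and 22.3 FPKM in Wtapflox/flox hearts (log2 fold change 1.79 ± 0.18 (SE), adjusted p = 0.000793). Cyr61 averaged 91.5 ± 5.92 FPKM in Wtap-CKO hearts and 26.1 ± 6.73 FPKM in Wtapflox/flox hearts (SD, n = 3 each), far above the level of Gm17501. By the file coordinates the genes lie 331 bases apart, and by RefSeq 92 bases, as shown above. E230014E18Rik and Ckap4 also rose together, at 3035 bases in convergent orientation. Ckap4, a membrane protein of the endoplasmic reticulum, had 133, 134 and 106 FPKM in Wtap-CKO hearts, against 48.0, 68.2 and 53.7 FPKM in Wtapflox/flox hearts (log2 fold change 1.13 ± 0.18 (SE), adjusted p = 0.00405). Chrm2, which overlaps 9330158H04Rik, had 17.6, 25.8 and 13.9 FPKM in Wtap-CKO hearts, against 12.1, 8.20 and 8.0 FPKM in Wtapflox/flox hearts (log2 fold change 0.92 ± 0.24 (SE), adjusted p = 0.0332).

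Chaer1 and Hopx were the first of the pairs that fell together, 23350 bases apart on the same strand. Hopx, an unusual homeodomain protein that does not bind DNA and is needed in heart development, had 95.9, 78.1 and 69.5 FPKM in Wtap-CKO hearts, against 133, 138 and 169.5 FPKM in Wtapflox/flox hearts (log2 fold change -0.85 ± 0.17 (SE), adjusted p = 0.0121). The other such pair is Gm45495 and Smim20, with Gm45495 3270 bases downstream on the same strand. Whether the reads of Gm45495 come from a transcript separate from that of Smim20 was not tested. Smim20, a small protein of cytochrome c oxidase assembly, had 8.28, 5.70 and 6.63 FPKM in Wtap-CKO hearts, against 18.3, 17.2 and 22.2 FPKM in Wtapflox/flox hearts (log2 fold change -1.37 ± 0.15 (SE), adjusted p = 0.00119). In the 3 opposite pairs the RNA fell and the coding gene rose. Gm10747 lies 240 bases upstream of Lrrc10 on the same strand. Lrrc10, a cardiac leucine-rich repeat protein, had 88.2, 112 and 95.2 FPKM in Wtap-CKO hearts, against 72.6, 61.9 and 65.6 FPKM in Wtapflox/flox hearts (log2 fold change 0.55, adjusted p = 0.0356). Ube2q1, a ubiquitin conjugating enzyme, had 12.7, 11.5 and 12.9 FPKM in Wtap-CKO hearts, against 8.47, 8.21 and 9.26 FPKM in Wtapflox/flox hearts (log2 fold change 0.47, adjusted p = 0.0236). Nfil3, a transcription factor 35129 bases from Gm33424, had 31.5, 36.7 and 32.4 FPKM in Wtap-CKO hearts, against 15.4, 17.05 and 15.8 FPKM in Wtapflox/flox hearts (log2 fold change 1.01, adjusted p = 0.00140). Gm33424 itself rests on 10 reads in Wtap-CKO and 22 in Wtapflox/flox libraries (log2 fold change -0.57, adjusted p = 0.0299).

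**Figure D5:**
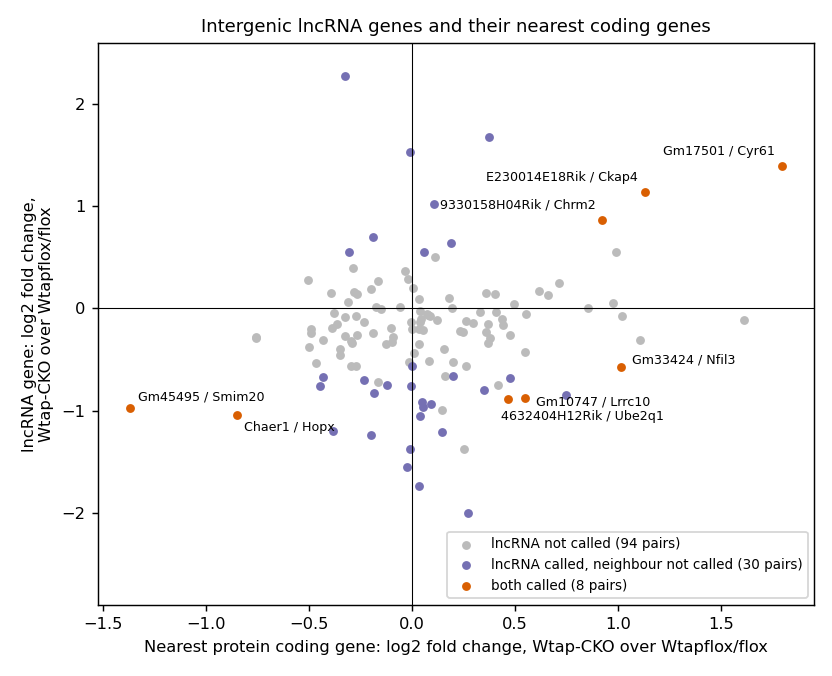
Each point is 1 of 132 pairs, with the log2 fold change (Wtap-CKO over Wtapflox/flox) of the nearest protein coding gene on the x axis and that of the noncoding RNA gene on the y axis. The 8 pairs with both genes called are orange and named, 30 pairs with a called RNA and a neighbour not called are purple, the other 94 are grey, Gm17501 with Cyr61 lies at the upper right, and many purple points lie near 0 on the x axis.

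Annotation has moved for part of these genes. By gene ID, 138 of the 168 are long noncoding in GENCODE M39, 7 are protein coding, 3 are pseudogenes and 20 IDs were not found. Of the 138 genes that are long noncoding there, 11 were higher (7.97%) and 28 lower (20.3%). Of the 141 genes that overlapped no coding gene in the file, 9 were higher (6.38%) and 28 lower (19.9%), beside 9.91% and 6.69% of all tested genes. Both sets include genes that entered through 1 genotype. Of the 126 genes at 1 FPKM or more in both groups, 7.94% were higher and 11.9% lower. Over all tested genes at that level in both groups the shares were 9.62% and 6.14%. The 3 called genes that are now coding are Stmp1, Zfp469 and Prr33, and Prr33 was lower, with 1.19, 2.10 and 2.29 FPKM in Wtap-CKO hearts, against 4.89, 3.27 and 2.96 FPKM in Wtapflox/flox hearts (log2 fold change -0.72 ± 0.20 (SE), adjusted p = 0.0426). Prr33 lies opposite the troponin gene Tnnt3.

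Length, place and one sequence feature, which the rule did not use, are given as a description. Gene length had a median of 1350.5 bases for the higher, 1577 for the lower and 1598.5 for the genes not called. The distance to the nearest coding gene had a median of 2.05 kb for the higher, 6.45 kb for the lower and 3.53 kb for the genes not called. The m6A core GGACT occurred at a median of 0.696 per kb in transcripts of 13 higher genes, 0.948 per kb in 29 lower and 0.891 per kb in 106 genes not called (GENCODE M39, sense strand of the longest transcript). These medians were not tested, the quartiles overlap widely (0 to 1.17, 0.588 to 1.52 and 0.481 to 1.44 per kb), and a match does not show methylation.

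Genes that act on noncoding RNA were counted from lists. Of 27 genes of the nuclear exosome and its adaptors, which degrade many noncoding RNAs, 3 were higher and 0 lower. They are Exosc4, with 27.5, 20.3 and 28.3 FPKM in Wtap-CKO hearts, against 11.1, 14.04 and 12.8 FPKM in Wtapflox/flox hearts (log2 fold change 0.94 ± 0.16 (SE), adjusted p = 0.00515), Exosc1 (log2 fold change 0.51, adjusted p = 0.0365) and the m6A reader Ythdc1 (0.50, adjusted p = 0.0133). Of 24 genes of the Integrator complex and transcription termination 0 were higher and 2 lower, Ints7 (-0.46, adjusted p = 0.0259) and Ints10 (-0.49, adjusted p = 0.0351). The median log2 fold change was 0.02 for the exosome list and -0.16 for the Integrator list. Of 8 genes of the m6A writer complex 1 was higher, Rbm15 (0.87, adjusted p = 0.00810), and 0 lower. Of 6 noncoding genes of the p53 and DNA damage list 1 was higher, Mir22hg, and of 4 loci with known micropeptides 2 were higher, Stmp1 and 1110065P20Rik (0.68, adjusted p = 0.0247). These shares stand beside the 9.91% of all tested genes called higher and 6.69% called lower.

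Marker genes of the cell types in a heart were counted as well, beside 9.91% of all tested genes called higher and 6.69% called lower. With so few markers for each type, 1 or 2 calls lie near those shares. The 10 cardiomyocyte markers were all expressed and together had 16532 to 19488 FPKM in Wtap-CKO hearts and 15158 to 18443 FPKM in Wtapflox/flox hearts, with 0 higher and 1 lower. Their log2 fold changes ran from -1.78 to 0.36. Of 8 macrophage markers 3 were higher and 0 lower, and their sum was 70.6 to 132 FPKM in Wtap-CKO hearts and 47.8 to 54.7 FPKM in Wtapflox/flox hearts. Markers of other leukocytes summed to 11.8 to 78.6 FPKM in Wtap-CKO hearts and 5.22 to 9.35 FPKM in Wtapflox/flox hearts, with 1 of 3 tested higher. The upper end of both leukocyte sums is Wtap-CKO 3, the library that also stood apart for Malat1, Meg3 and Mirg. S100a9, a neutrophil gene, had 5.81, 4.96 and 44.9 FPKM in Wtap-CKO hearts, against 4.51, 5.91 and 2.38 FPKM in Wtapflox/flox hearts, and Lyz2, a lysozyme of macrophages and neutrophils, had 27.8, 22.1 and 57.8 FPKM in Wtap-CKO hearts, against 14.2, 17.9 and 16.9 FPKM in Wtapflox/flox hearts. Of 8 fibroblast markers 0 were higher and 2 lower, at 530.3 to 741 FPKM in Wtap-CKO hearts and 705 to 802 FPKM in Wtapflox/flox hearts. Of 8 endothelial markers 1 was higher and 1 lower, and of 7 smooth muscle and pericyte markers tested 2 were higher and 1 lower. Of 6 erythroid markers tested 0 were called. Of 2 skeletal muscle markers tested 1 was higher and 1 lower, and Myh4 was at 0 in every library. Of 4 epicardial markers tested 1 was higher, and the 1 neuronal and Schwann marker tested was not called. The part of these differences in the changes of the noncoding RNAs was not tested.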

How the data were processed

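Gene levels were measured by RNA-seq in 3 Wtap-CKO and 3 Wtapflox/flox hearts. The authors deposited FPKM values for 54532 genes, and the submitters' processing notes name CASAVA, HISAT2 2.0.5, featureCounts 1.5.0-p3 and DESeq2 1.20.0. GRCm39 is the build in those notes. An end within 1000 bases of the annotated place was found in GRCm38.p6 for 94.8% of 20851 coding genes and in GRCm39 for 3.30% of 21715, so coordinates are given as GRCm38. FPKM times length gave whole reads within 0.01 for all values, with 15812407 to 18045599 reads per Wtap-CKO library and 15649028 to 17115796 per Wtapflox/flox library. The library size implied by FPKM was below the recovered reads in each Wtap-CKO library, as 1.61e+07 against 16485304 in Wtap-CKO 1. It was above them in each Wtapflox/flox library, as 1.74e+07 against 16589331 in Wtapflox/flox 1. Limma-voom used the implied sizes.

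The 12568 genes averaging 1 FPKM or more were tested here on log2(FPKM + 1) with limma 3.58.1 (R 4.3.3; trended variance, robust moderation), two-sided, with Benjamini-Hochberg adjustment and a threshold of 0.05. Adding 1 makes fold changes of scarce genes smaller than they are in FPKM. Fold changes are given as Wtap-CKO over Wtapflox/flox, and intervals are at 95%. The procedure was tested on simulated data. Other steps used Python 3.11.15 with scipy 1.17.1, pandas 2.3.3, matplotlib 3.10.9 and numpy 2.4.6.

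The text names the 10 most abundant genes, the 20 largest rises and 20 largest falls that passed (14 rose), members of the lists used, the 3 genes on each side of the level threshold, and nearest coding genes, though not all are printed. The genes, the lists and the tests were chosen with earlier results of these data known. Other settings tried were a pseudocount of 0.1 or 0.5, no level filter or one of 5 FPKM, upper-quartile, quantile and equal-total (TPM) scaling, limma without the trend or robust moderation, limma-voom on recovered reads, the replicate number as a block, leaving out single libraries, and stricter thresholds.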

Additional observations from a re-analysis of the deposited data

How the results depend on the processing

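The 46 calls (14 higher, 32 lower) stayed within 1.5 times that count under both other pseudocounts, the 3 scalings, the 3 other fits and the replicate block. Limma-voom on recovered reads gave 41 calls, 39 of them among the 46. The count was 30 (8 higher) with no filter, 10 (6 higher, 4 lower) with a mean of at least 5 FPKM, 17 (5 higher, 12 lower) at an adjusted p under 0.01, and 18 (7 higher, 11 lower) with a log2 fold change of at least 1. Fewer genes can pass under the last 3, and more genes share the adjustment with no filter. Genes that overlap no coding gene gave 9 higher. Leaving out 1 library gave 30 to 45 calls, 8 to 12 higher and 21 to 33 lower. The median log2 fold change of the 168 genes was -0.10 with a mean of at least 5 FPKM and -0.31 with TPM scaling, where the median of all tested genes was -0.13, and it ran between -0.21 and -0.16 with 1 library left out. The replicate numbers did not pair the samples (correlations of deviations -0.216, -0.0752 and -0.0764), and a replicate block gave 43 calls, 40 of them among the 46. Wtap turned to 0.05 without Wtap-CKO 2 and 0.086 without Wtapflox/flox 3, and ran between -0.13 and 0.086 with 1 library left out. Among genes not called, the sign turned for Tmem250-ps (-0.015 under quantile and -0.072 under TPM scaling), H19 (0.095, 0.064, 0.014 and 0.054 without Wtap-CKO 1, Wtap-CKO 2, Wtapflox/flox 2 and Wtapflox/flox 3), Malat1, Meg3 and Gm10076 (0.27, -0.0075 and -0.39 without Wtap-CKO 3), and Carmn and Gm10076 (-0.11 and -0.43 without Wtapflox/flox 3). With 1 library left out, H19 ran between -0.16 and 0.095, Malat1 between -0.87 and 0.27, Meg3 between -0.0075 and 0.46, Carmn between -0.11 and 0.22 and Gm10076 between -0.43 and 0.85. The cause was not tested. Depth limits the scarce genes, with 7 to 17 of the 168 genes under 10 reads per library.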

Other observations

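One gene outside the naming rule is given because its fold change was large, and it was chosen after its values were seen. Gm12319, 97 bases from the actin-binding protein gene Pfn1 on the same strand, had 2.26, 4.35 and 8.10 FPKM in Wtap-CKO hearts, against 18.6, 11.98 and 9.96 FPKM in Wtapflox/flox hearts. The groups did not overlap, but the difference was not called (log2 fold change -1.38 ± 0.42 (SE), adjusted p = 0.0836). It was the gene with the largest log2 fold change, in either direction, among the 122 of the 168 genes that were not called.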
